A study of Mus musculus with 23 samples.

Results

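Arterial endothelial cells line the arteries and arterioles that bring blood to the brain. In these data they were the endothelial barcodes that carried at least 3 summed unique molecular identifiers (UMIs, each counting 1 captured RNA molecule) of 5 arterial genes, Gkn3, Bmx, Sema3g, Mgp and Fbln5, and more of these than of 4 venous genes, Slc38a5, Vwf, Nr2f2 and Lrg1. A barcode counted as endothelial when at least 4 of 8 endothelial genes (Cldn5, Flt1, Ly6c1, Itm2a, Egfl7, Slco1a4, Ptprb and Pglyrp1) had a UMI, when their sum was at least 3 times that of 8 genes of astrocytes, microglia, oligodendrocytes and mural cells, and when Plvap, a gene of fenestrated vessels, had fewer than 3 UMIs. The rule found 8979 arterial cells among 110935 endothelial cells, 249715 barcodes past a filter on depth and 265025 barcodes in all. The same endothelial cells held 19779 venous cells, chosen by the mirrored rule, and 82177 remaining cells that met neither and hold the capillary cells.

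The study used an intravenous antibody coupled to the fluorescent dye AF647 to ask which brain cells take up antibodies that bind a receptor of the blood-brain barrier. ATV stands for antibody transport vehicle. TfR mu/hu knock-in mice received ATV-TfR, which binds the transferrin receptor, CD98hc mu/hu knock-in mice received ATV-CD98hc, which binds CD98hc, and C57BL/6J mice received a control IgG. The effects of treatment and genotype cannot be told apart. All mice were 12 weeks old (3.3 months in the labels), received 45 mg/kg and were killed 24 h later. Olfactory bulb, cerebellum, pons and medulla were removed, the remaining brain was dissociated in the presence of actinomycin D and anisomycin, which block RNA and protein synthesis, and a sort on AF647 signal divided the live cells into negative, low, medium and high bins. The gates split the AF647-positive cells from ATV-TfR brains into equal parts and served all treatments. About 30% of cells were positive with ATV-TfR, 20% with ATV-CD98hc and 1% with control IgG. Each pool joined 1 male and 1 female mouse, and each of 2 pools per treatment gave 1 library per bin, from a target of 60000 cells. For control IgG only replicate 2 represents the negative bin, so 23 libraries fall into 12 groups.

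Arterial endothelial cells are specified by VEGF and Notch signalling and express ephrin B2, connexins and a set of transcription factors that includes Sox17. They rest on elastic fibres and smooth muscle, and regulate vessel tone through nitric oxide and prostacyclin. Most carriers of nutrients, the transferrin receptor and the large amino acid transporter are best known from capillary cells, while arterioles are known for abundant caveolae. CD98hc, the product of Slc3a2, is the heavy chain that pairs with light chains such as the product of Slc7a5 to form amino acid transporters.

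The label was checked against the markers. Gkn3 was detected in 62.4% of arterial cells, Bmx, a tyrosine kinase, in 56.3%, the semaphorin gene Sema3g in 66.6%, Mgp, an inhibitor of calcification, in 50.1%, and Fbln5, an elastic fibre protein, in 7.19%. In the remaining endothelial cells the shares were 2.66%, 3.79%, 11.2%, 3.00% and 0.284%, and in microglia-like barcodes, which should lack these genes, they were 0.148%, 0.0703%, 0.0468%, 1.80% and 0.718%. The median depth was 4916 UMIs in arterial, 3238 in remaining and 3443 in microglia-like cells. These genes chose the cells, so the gap is a description. The rule is lenient at its edge: 2080 arterial cells (23.2%) carried exactly 3 summed marker UMIs, a further 3490 cells just outside carried 2, and 1884 arterial cells had a single one of the 5 markers. The venous gene Ackr1 had 2 UMIs in all arterial cells together, but its list did not separate the classes. Of 12 genes of venous and leukocyte adhesion, 6 were higher and 6 lower in arterial than in remaining cells, with a median log2 ratio of 0.05.

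Genes outside the rule gave the same picture as a description, compared with remaining cells in the 18 libraries that held at least 20 cells of both classes. Of 18 further genes of arterial identity, 17 had a median ratio above 1. The median log2 ratio was 7.18 for the cytokine-like gene Cytl1, 3.73 for Gja5 and 2.85 for Gja4, which encode arterial connexins, 3.56 for the growth factor Vegfc, 1.93 for Stmn2, 1.41 for the Notch target Hey1, 1.19 for Efnb2, which encodes ephrin B2, and 0.38 for Sox17. The elastin gene Eln was 2.96 higher, the basement membrane collagen gene Col18a1 3.75 and the fibulin gene Fbln2 2.80. Among 16 genes of capillary and barrier transport, 14 were lower, with a list median of -0.78. The carbonic anhydrase gene Car4 was at -1.77, the lactate transporter gene Slc16a1 at -1.61, the lipid transporter gene Mfsd2a at -0.67 and Slc7a5 at -1.41. The antibody receptors were lower too: the ratio was -1.09 for Tfrc, -0.70 for Slc3a2 and -0.63 for Fcgrt, which encodes the neonatal Fc receptor, each lower in 18 of 18 libraries. Markers of smooth muscle, pericytes and fibroblasts were higher in arterial cells for 8 of 8 genes in each list, with medians of 2.20, 2.24 and 2.64. Of arterial cells, 35.6% carried more than 5 UMIs of the markers of 1 other cell type, against 26.6% of venous and 17.3% of remaining cells. A fixed cut depends on depth, and the median depth was 4916 UMIs in arterial, 4977 in venous and 3238 in remaining cells. The part of RNA from neighbouring cells in these ratios was not tested. Each library counts alike in the medians, whatever its bin. Cytl1 had only 7 UMIs and Gja5 21 in the 2096 arterial cells of the ATV-TfR high bin. With ATV-CD98hc they had 3 and 18 UMIs in the 1211 arterial cells of the high bin.

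In the 19 libraries with at least 20 arterial cells, the total UMIs of these cells ranged from 102584 in the ATV-CD98hc negative bin, replicate 2, to 9328498 in the medium bin, replicate 1, and the total limits the precision of each level. The control IgG medium and high libraries, with 0 to 5 arterial cells, give no levels. The negative bins of both transport vehicles held fewer UMIs than the other bins of their treatment. Between libraries, 15 barcode sequences were shared by arterial cells, 5 of them within 1 treatment. Nothing in the labels says that a library was repeated. The 2 libraries of a group come from separate pools of mice, and p-values between groups rest on the spread between such libraries. The bins of a pool share its mice. The main tests over bins treated them as separate units, and pools were a block only in an alternative. The test of arterial against remaining changes compared both classes within each library.

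With both transport vehicles, the arterial share of endothelial cells fell from the negative to the high bin. With ATV-TfR, arterial cells made up 66.3% and 68.2% of the endothelial cells of the negative bin in pools 1 and 2 (67.2% ± 1.3, SD, n = 2). The share was 50.4% and 51.1% in the low bin, 16.6% and 18.2% in the medium bin, and 6.02% and 5.79% in the high bin (5.90% ± 0.16, n = 2). No 2 bins overlapped. Endothelial cells themselves were scarce where the arterial share was high, with 95 and 66 in the negative bin against 18566 and 16920 in the high bin. The high bin therefore still held the most arterial cells, 1117 and 979, against 63 and 45 in the negative bin. The slope of the log odds of the share per bin was -1.20 (exact two-sided permutation of the bin labels over 8 libraries, p = 0.000794, the smallest p the 2520 arrangements allow, and 0.00159 after Benjamini-Hochberg adjustment over 6 trends).

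With ATV-CD98hc the share was 59.0% and 42.1% in the negative bin (50.6% ± 12.0, n = 2), which rests on 83 and 57 endothelial cells. It was 17.2% and 18.6% in the low bin, 8.44% and 7.07% in the medium bin, and 5.28% and 5.46% in the high bin (5.37% ± 0.13, n = 2). The low bin thus held 17.9% ± 1.0 arterial cells with ATV-CD98hc against 50.7% ± 0.50 with ATV-TfR at the same gate, a difference between treatments that was not tested. The slope was -0.963 (exact permutation p = 0.000794, adjusted p = 0.00159). When each cell was thinned to 2000 UMIs, which left out 0 to 1647 shallower endothelial cells per library, the shares were 44.9% and 64.2% in the ATV-TfR negative bin and 2.63% and 2.00% in the high bin, and 50% and 44.7% against 1.83% and 2.23% with ATV-CD98hc.

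**Figure D1:**
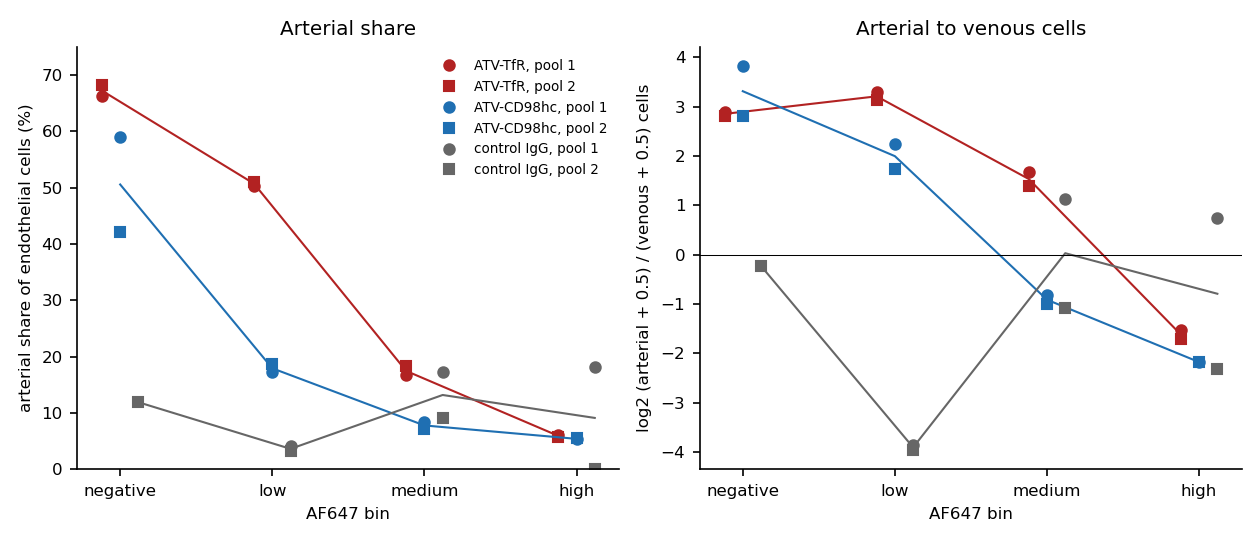
Arterial share of endothelial cells (percent, vertical axis) in each AF647 bin (horizontal axis) for the 3 treatments, 1 point per library. With ATV-TfR the libraries run from 66.3% and 68.2% in the negative bin to 6.02% and 5.79% in the high bin, and with ATV-CD98hc from 59.0% and 42.1% to 5.28% and 5.46%. With control IgG the share is 11.9% in the negative bin and 4.05% and 3.14% in the low bin. Its medium and high libraries hold 0 to 5 arterial cells each and set no order.

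Over the 4 bins arterial cells also became fewer relative to venous cells of the same libraries, though not at every step: with ATV-TfR there were 63 arterial to 8 venous cells and 45 to 6 in the negative bin, and 210 to 21 and 144 to 16 in the low bin. The log2 ratio of arterial to venous cells sloped by -1.51 per bin for ATV-TfR libraries (p = 0.00476 by exact permutation, 0.00714 adjusted) and by -1.94 for ATV-CD98hc libraries (p = 0.000794 by exact permutation, 0.00159 adjusted). In the control IgG libraries, whose mice received no receptor-binding antibody, the arterial share was 11.9% in the negative bin (95% exact Clopper-Pearson interval 10.7 to 13.1%), 4.05% and 3.14% in the low bin, 17.2% and 9.09% in the medium bin on 5 and 4 arterial cells, and 18.2% and 0% in the high bin on 2 of 11 and 0 of 14 cells, where 0 of 14 allows a share of up to 21.4% by a floor of 3 counts and has an exact upper limit of 23.2%. Its slope was 0.139 (exact permutation, adjusted p = 0.697) and that of the ratio 0.532 (adjusted p = 0.625, exact permutation), and 630 arrangements cannot give a p below 0.00159. There were 359 arterial to 421 venous cells in the negative bin, and 45 to 659 and 76 to 1189 in the low bin. The medium and high libraries, with 0 to 5 arterial cells, count as much in these slopes as the fuller ones.

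The share of ATV-TfR arterial cells at each gate was estimated from the label percentages, taking 30% positive cells in equal parts over the 3 positive gates. On this basis 32.1% and 32.4% of arterial cells lay in the negative bin, 8.52% and 5.47% in the low, 21.9% and 24.0% in the medium and 37.4% and 38.1% in the high bin. The high bin held 90.2% and 89.9% of venous cells and 79.5% and 81.4% of remaining cells by the same estimate. The estimate has no interval, because it rests on rounded percentages. It also assumes that barcodes past the depth filter stand for all sorted cells of a bin. In the negative bin 8988 of 10606 and 6656 of 7807 barcodes passed, against 19551 of 19914 and 17611 of 18086 in the high bin. The negative part rests on 63 and 45 arterial cells. By this estimate arterial cells were spread over dim and bright bins, while the other endothelial cells were mostly bright.

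The marker level of the arterial cells also moved with the bin. The median sum of the 5 markers was 13 and 29 UMIs in the ATV-TfR negative bin, 11 and 12 in the low, 7 and 7 in the medium and 5 and 5 in the high bin, and 10 and 15, 7 and 9, 5 and 6, and 5 and 5 with ATV-CD98hc. Cells at exactly 3 summed UMIs made up 3.17% and 2.22% of the ATV-TfR negative bin and 25% and 31.2% of the high bin. These values belong to the genes of the rule and carry no test.

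Fbln5, which organises elastic fibres and was part of the rule, had the steepest such difference among the 5, as a description. It had 413 and 396 CPM (a gene's UMIs scaled to a fixed total of the UMIs of a library's arterial cells) in the ATV-TfR negative bin, 354 and 349 in the low, 40.1 and 50.3 in the medium and 7.27 and 3.89 in the high bin. With ATV-CD98hc it had 180 and 273, 142 and 149, 17.8 and 25.2, and 1.77 and 3.40 CPM. The dim bins lay above the bright ones in each pool.

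Arterial genes that the rule did not use were compared between bins with edgeR's quasi-likelihood test over the 19 libraries with at least 20 arterial cells and 14312 genes, where called means a Benjamini-Hochberg adjusted p below 0.05. Of all genes tested, 2790 (19.5%) were called between the high and low bins of ATV-TfR, 1122 (7.84%) higher and 1668 (11.7%) lower in the high bin. Between the high and negative bins 643 (4.49%) were called, 228 (1.59%) higher and 415 (2.9%) lower. For ATV-CD98hc, 2341 (16.4%) were called between high and low, 715 (5%) higher and 1626 (11.4%) lower. Between its high and negative bins 334 (2.33%) were called, 129 (0.901%) higher and 205 (1.43%) lower. The comparisons of a high bin with its low and negative bins share the high libraries. With at least 5 marker UMIs required of each cell the 4 counts were 2411, 670, 1925 and 305. Removing cells marked as doublets by Scrublet, or cells with RNA of other types, lowered both low to high counts by over 1.5 times, as given further below. Scaling by the median ratio of genes in place of TMM factors gave splits of 585 higher and 1940 lower, 145 and 521, 369 and 1857, and 83 and 244. The median change of well-measured genes was 0.24, 0.18, 0.19 and 0.19 on the log2 scale with TMM, so changes are relative to that shift. Leaving out a pool leaves 1 library in each of its bins, assumed to vary like the other groups, and moved the counts: from low to high with ATV-TfR dropping ATV-TfR replicates 1 and 2 gave 1340 and 742, from negative to high 139 and 189, and those from negative to high with ATV-CD98hc 168 and 166 on dropping ATV-CD98hc replicates 1 and 2. With the pools as a block, 3529 genes were called from low to high with ATV-CD98hc.

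Among called genes outside the rule whose mean log2 CPM reached 4 and whose libraries did not overlap, Cytl1 and Pi16 had the largest falls from low to high with both antibodies. Cytl1, which encodes a secreted cytokine-like protein, had 246 and 167 CPM in the ATV-TfR negative bin, 174 and 188 in the low, 28.8 and 21.3 in the medium and 1.02 and 0 in the high bin. With ATV-CD98hc it had 108 and 117, 66.2 and 68.3, 6.54 and 10.7, and 0.882 and 0 CPM. The high bins were nearly empty of it and overlapped no other bin of their treatment. With ATV-TfR the log2 change from low to high was -8.15 ± 0.51 (SE, edgeR adjusted p = 1.02e-09). The ATV-TfR high bin held only 7 UMIs, and the low bin was 349 times higher (95% interval 168 to 876, counting error only). With ATV-CD98hc the high bin held 3 UMIs, and the low bin was 176 times higher (95% interval 59.5 to 856, counting error only). Pi16, which encodes a secreted peptidase inhibitor, had 302 and 159 CPM in the ATV-TfR negative bin, 185 and 139 in the low, 9.73 and 12.1 in the medium and 1.74 and 1.35 in the high bin, with a change of -6.48 from low to high (edgeR adjusted p = 2.42e-10).

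Eln, the gene of elastin, fell along the same order. Its levels with ATV-TfR were 592 and 509 CPM in the negative, 390 and 392 in the low, 101 and 96.1 in the medium and 25.9 and 17.2 in the high bin. With ATV-CD98hc they were 153 and 419, 192 and 184, 60.1 and 52.5, and 26.8 and 17.2 CPM. The low and high bins did not overlap for either antibody, while the ATV-CD98hc negative pools spanned the low ones. The change from low to high was -3.99 ± 0.28 (edgeR adjusted p = 7.01e-09) with ATV-TfR and -2.96 ± 0.28 (edgeR adjusted p = 1.10e-07) with ATV-CD98hc. The 3 control IgG libraries with enough cells held 123 CPM and 120 in the low bin and 122 in the negative bin.

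Of 18 genes of elastic fibres and vessel matrix, 7 fell and 4 rose between the low and high bins of ATV-TfR (list median -0.22, against 0.14 for all genes tested). Over all genes tested, 11.7% fell and 7.84% rose. Those of the list that fell were Eln, Fbn1, Fbln2, Ltbp1, Lox, Bgn and Col18a1, and those that rose were Col4a1, Col4a2, Hspg2 and Sparc. Of the 4 rises, those of Col4a1, Col4a2 and Hspg2 were lost when cells with RNA of other types were left out. Between the negative and high bins 7 were lower and 0 higher (median -0.52), where 2.9% of all genes were lower and 1.59% higher. Markers of other cell types moved with these falls. The summed level of fibroblast markers was 159 to 690 CPM in the 2 negative libraries and 69.5 to 89.5 in the high bin. Of 8, 4 (Slc6a13, Igf2, Dcn and Col1a1) were called lower, though the sign of Col1a1 turned with 1 replicate left out. Smooth muscle markers were 933 to 1728 against 421 to 427 CPM, with 5 of 7 called lower. Of 8 oligodendrocyte and 8 microglia markers, 7 and 5 were called lower. The part of RNA of these cells in the matrix falls was not tested. With ATV-CD98hc, 5 fell and 6 rose between low and high (median 0.08), where 11.4% of all genes fell and 5% rose. Between its negative and high bins 5 fell and 1 rose (median -0.16), where 1.43% of all genes fell and 0.901% rose. Of the 6 rises from low to high, 4 (Fn1, Col4a1, Col4a2 and Lama4) were lost without the cells with RNA of other types.

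Among 18 genes of arterial identity, 5 fell (Stmn2, Gja5, Cytl1, Vegfc and Clu) and 2 rose (Cxcl12 and Unc5b) from the low to the high bin with each antibody, and 7 fell and 1 rose against the negative bin with ATV-TfR, 6 and 1 with ATV-CD98hc. Over all genes tested the shares were 11.7% lower and 7.84% higher from low to high with ATV-TfR, 11.4% and 5% with ATV-CD98hc, and against the negative bin 2.9% and 1.59%, and 1.43% and 0.901%. The list medians from low to high were -0.34 with each antibody, and the rises lie near the background. Vegfc, a growth factor of lymphatic vessels, had 519 and 524 CPM in the ATV-TfR negative, 395 and 334 in the low, 301 and 265 in the medium and 141 and 113 in the high bin. With ATV-CD98hc its levels were 684 and 595, 328 and 372, 191 and 179, and 138 and 121 CPM. No high library reached a dimmer one, and the low to high changes were -1.33 and -1.28 (edgeR adjusted p = 1.28e-05 and 1.72e-05).

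Gja5, which encodes connexin 40, had 27.9 and 46.6 CPM in the ATV-TfR negative bin, 29.7 and 29.6 in the low, 9.35 and 7.34 in the medium and 2.18 and 0.897 in the high bin, a change from low to high of -4.03 (edgeR adjusted p = 2.65e-06). With ATV-CD98hc it had 8.83 and 17.1 CPM in the low bin and 3.82 and 1.13 in the high bin, a change of -2.32 (edgeR adjusted p = 0.00172), and against the negative bin, with 9.0 and 9.75 CPM, it was not called (-1.78, edgeR adjusted p = 0.561). Sox17, Efnb2, Hey1 and the Notch ligand gene Dll4 were not called in these comparisons: Sox17 ran from 908 and 719 CPM in the ATV-TfR negative bin to 570 and 590 in the high bin, and Dll4 from 126 and 155 to 128 and 120. Clu, which astrocytes also express strongly, fell by 3.25 and 3.75 on the log2 scale from low to high with ATV-TfR and ATV-CD98hc, and was still called when cells with RNA of other types were left out.

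The Notch ligand gene Jag1 had 288 and 272 CPM in the ATV-TfR negative bin, 215 and 225 in the low, 91.1 and 96.5 in the medium and 59.3 and 61.6 in the high bin. It fell by 1.67 from low to high with ATV-TfR and by 0.73 with ATV-CD98hc (edgeR adjusted p = 9.68e-07 and 0.00673). Of 16 Notch genes, 1 fell and 2 rose (Heyl and Hes1, the latter not called with median-ratio scaling) in this ATV-TfR comparison, where 11.7% of all genes tested fell and 7.84% rose. With ATV-CD98hc 3 fell and 0 rose, beside 11.4% and 5% of all genes. The list medians were 0.08 and 0.23, against 0.14 and 0.11, and these low to high shares lie near the background. Against the negative bin 2 of 16 (Jag1 and Jag2) were lower and 0 higher with each antibody. Over all genes tested 2.9% were lower and 1.59% higher with ATV-TfR, and 1.43% and 0.901% with ATV-CD98hc.

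Several genes of vessel tone fell. Nos1, which is not on that list and encodes the neuronal nitric oxide synthase, had 115 and 124 CPM in the ATV-TfR negative, 111 and 108 in the low, 28.0 and 26 in the medium and 4.8 and 4.19 in the high bin, and 113 and 137, 49.1 and 53.1, 10.2 and 8.61, and 5.59 and 2.72 CPM with ATV-CD98hc. Its change from low to high was -4.40 with ATV-TfR and -3.50 with ATV-CD98hc (edgeR adjusted p = 6.18e-10 and 2.35e-08). The prostacyclin synthase gene Ptgis ran from 134 and 136 CPM in the ATV-TfR negative bin and 111 and 77.2 in the low bin to 3.92 and 2.09 in the high bin (low to high -4.76, edgeR adjusted p = 1.40e-07). Ace, the angiotensin converting enzyme gene, had 83.2 and 87.5 CPM in the low bin and 9.16 and 15.0 in the high bin (-2.62, edgeR adjusted p = 1.35e-07). Of 18 genes of tone and shear stress, 7 fell and 3 rose from low to high with ATV-TfR, and 6 fell and 1 rose with ATV-CD98hc, beside 11.7% lower and 7.84% higher, and 11.4% and 5%, of all genes tested. The list medians were -0.19 and -0.03. All of these rises (Thbd, Ece1 and Adm, and Ece1) were lost with median-ratio scaling. The flow-induced gene Klf2 was not among them, with 2094 and 1542 CPM in the low and 1942 and 1623 in the high bin of ATV-TfR.

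**Figure D2:**
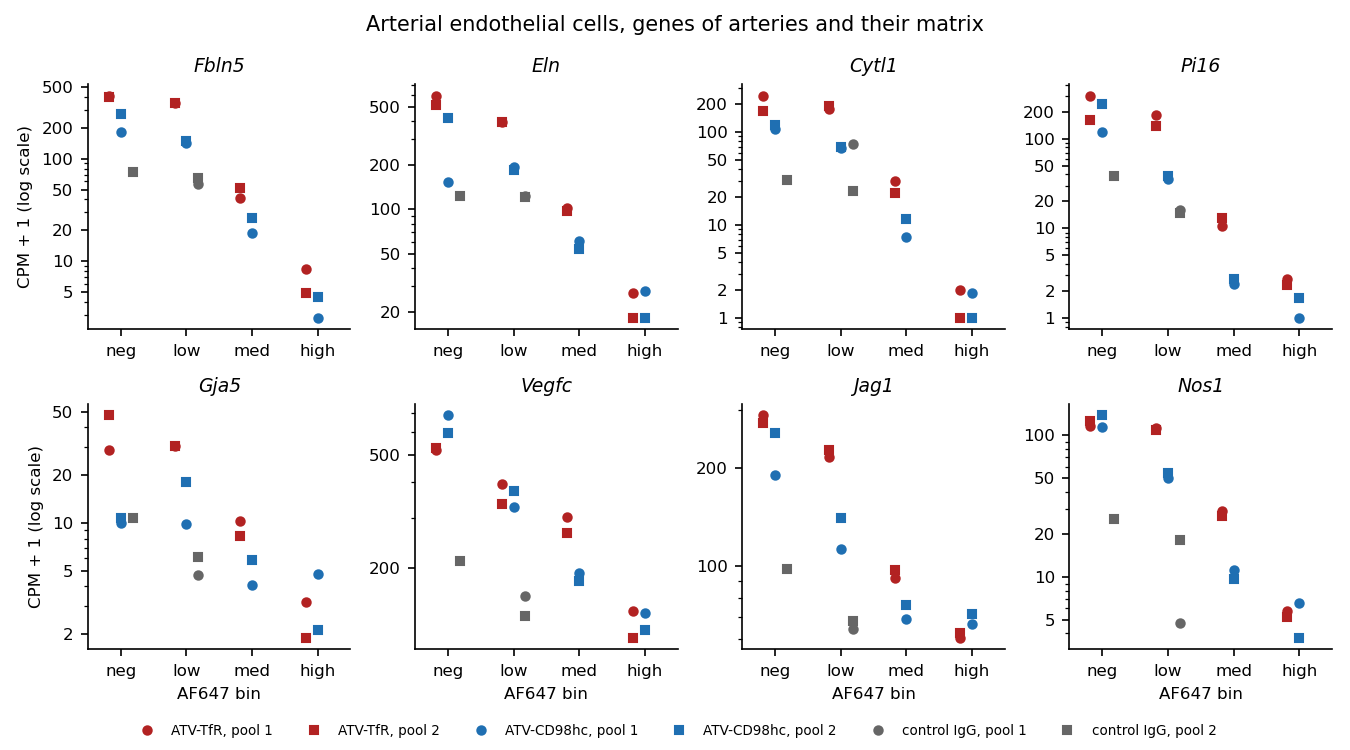
Level of 8 artery genes in arterial endothelial cells (CPM plus 1, log axis) in each AF647 bin, 1 point per library and 1 colour per treatment. Fbln5, a gene of the rule, and the other 7 genes lie lower in the high than in the negative and low bins of ATV-TfR, Cytl1 reaching 1.02 and 0 CPM in the high bin.

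Genes of the antibody receptors rose from the low to the high bin. Tfrc, the gene of the transferrin receptor, had 22.3 and 23.3 CPM in the ATV-TfR negative, 22.8 and 28.3 in the low, 35.4 and 52.5 in the medium and 117 and 130 in the high bin. With ATV-CD98hc it had 99.1 and 29.2, 73.6 and 75.9, 286 and 223, and 362 and 288 CPM, and the control IgG libraries had 256 and 363 in the low and 184 in the negative bin. The change from low to high was 2.48 ± 0.30 with ATV-TfR (edgeR adjusted p = 2.93e-06) and 2.27 ± 0.25 with ATV-CD98hc (edgeR adjusted p = 5.84e-07), so this gene rose with both antibodies, also with the one that binds CD98hc. At the same gate the ATV-TfR libraries lay below those of ATV-CD98hc.

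Slc3a2, the gene of CD98hc, had 196 and 140 CPM in the ATV-TfR negative bin, 166 and 194 in the low, 255 and 294 in the medium and 436 and 476 in the high bin, and 54.0 and 58.5, 120 and 99.4, 167 and 165, and 204 and 267 with ATV-CD98hc. From low to high it rose by 1.54 with ATV-TfR and by 1.27 with ATV-CD98hc (edgeR adjusted p = 1.64e-05 and 0.000129). Its partner Slc7a5 moved more: with ATV-TfR it had 112 and 89.3 CPM in the negative, 42.6 and 33.4 in the low, 150 and 197 in the medium and 501 and 609 in the high bin. The changes from low to high were 4.05 with ATV-TfR and 2.74 with ATV-CD98hc (edgeR adjusted p = 1.02e-09 and 2.14e-08).

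Fcgrt, whose product recycles IgG, had 217 and 152 CPM in the ATV-TfR low bin and 482 and 490 in the high bin (1.59, edgeR adjusted p = 3.96e-05). With ATV-CD98hc it had 247 and 268 against 358 and 472 CPM (0.85, edgeR adjusted p = 0.0114), and this call was lost when cells with RNA of another type were left out, and also when pool 2 of ATV-CD98hc (0.60) or pool 1 of ATV-TfR (0.75) was. Against the ATV-CD98hc negative bin Fcgrt was not called (0.88, edgeR adjusted p = 0.109). Slc40a1, the iron exporter gene, had 29.7 and 33.4 CPM in the ATV-TfR low and 196 and 203 in the high bin (2.86, edgeR adjusted p = 3.23e-08). Of 16 genes of antibody receptors, iron and the light chain, 6 rose and 0 fell from low to high with ATV-TfR (median 0.65, against 0.14 for all genes tested, of which 7.84% rose and 11.7% fell). With ATV-CD98hc 7 rose and 0 fell (median 0.52, against 0.11 for all genes, of which 5% rose and 11.4% fell).

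The genes of capillary and barrier transport moved nearly as a whole. Here and for the other genes, levels are sums over the arterial cells of a library. They cannot tell a change per cell from a different mix of cells. Cells at exactly 3 summed marker UMIs made up 8.57% and 11.1% of the ATV-TfR low bin and 25% and 31.2% of the high bin. From low to high, 15 of 16 rose and 0 fell with each antibody (list medians 2.21 and 1.50, against 0.14 and 0.11 for all genes tested), and against the negative bin 14 rose with each. Over all genes tested, 7.84% and 5% rose from low to high and 1.59% and 0.901% against the negative bin. With median-ratio scaling 15, 12, 12 and 11 were still called, in the order ATV-TfR and ATV-CD98hc low to high, then negative to high. Mfsd2a, whose product carries lysolipids with omega-3 fatty acids, had 58.7 and 58.3 CPM in the ATV-TfR negative, 55.5 and 55.3 in the low, 139 and 165 in the medium and 319 and 324 in the high bin. Its levels were 36.0 and 39.0, 77.0 and 123, 218 and 288, and 342 and 408 CPM with ATV-CD98hc. From low to high it rose by 2.73 and 2.06 (edgeR adjusted p = 9.82e-08 and 5.40e-07). Slc16a1 went from 30.7 and 28.3 CPM in the ATV-TfR low bin to 249 and 230 in the high bin (3.21, edgeR adjusted p = 3.23e-08), and Car4 from 46.6 and 29.6 to 564 and 511 (3.99, edgeR adjusted p = 2.50e-06). The chemokine gene Cxcl12, which is on this list and on that of arterial identity, rose by 2.55 and 1.31. Slc2a1, the glucose transporter gene, was the exception from low to high, with 1398 and 1694 against 1839 and 1962 CPM in ATV-TfR.

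Among called genes whose mean log2 CPM reached 4 and whose libraries did not overlap, the 3 largest rises from low to high with ATV-TfR were those of Tiam1 (5.01), an activator of the GTPase Rac, of the extracellular matrix gene Hmcn1 (4.31) and of Ctla2a (4.24). Tiam1 had 8.38 and 0 CPM in the negative, 2.97 and 5.14 in the low, 28.0 and 30.8 in the medium and 109 and 114 in the high bin (edgeR adjusted p = 2.47e-08). With ATV-CD98hc Tiam1, Hmcn1 and Ctla2a rose by 2.37, 2.52 and 2.57. The receptor gene Kdr rose by 2.02 and 1.64.

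The low to high comparisons of the 2 antibodies share no library. Leaving out the genes of the rule, they shared 1775 called genes, 525 higher in both and 1250 lower in both, and no gene was called in opposite directions. These were 63.6% of the calls with ATV-TfR and 75.8% of those with ATV-CD98hc. Over all genes tested, 19.5% were called with ATV-TfR and 16.4% with ATV-CD98hc. Markers of astrocytes and microglia were called lower with both antibodies, and the part of other-cell RNA in the overlap was not tested.

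**Figure D3:**
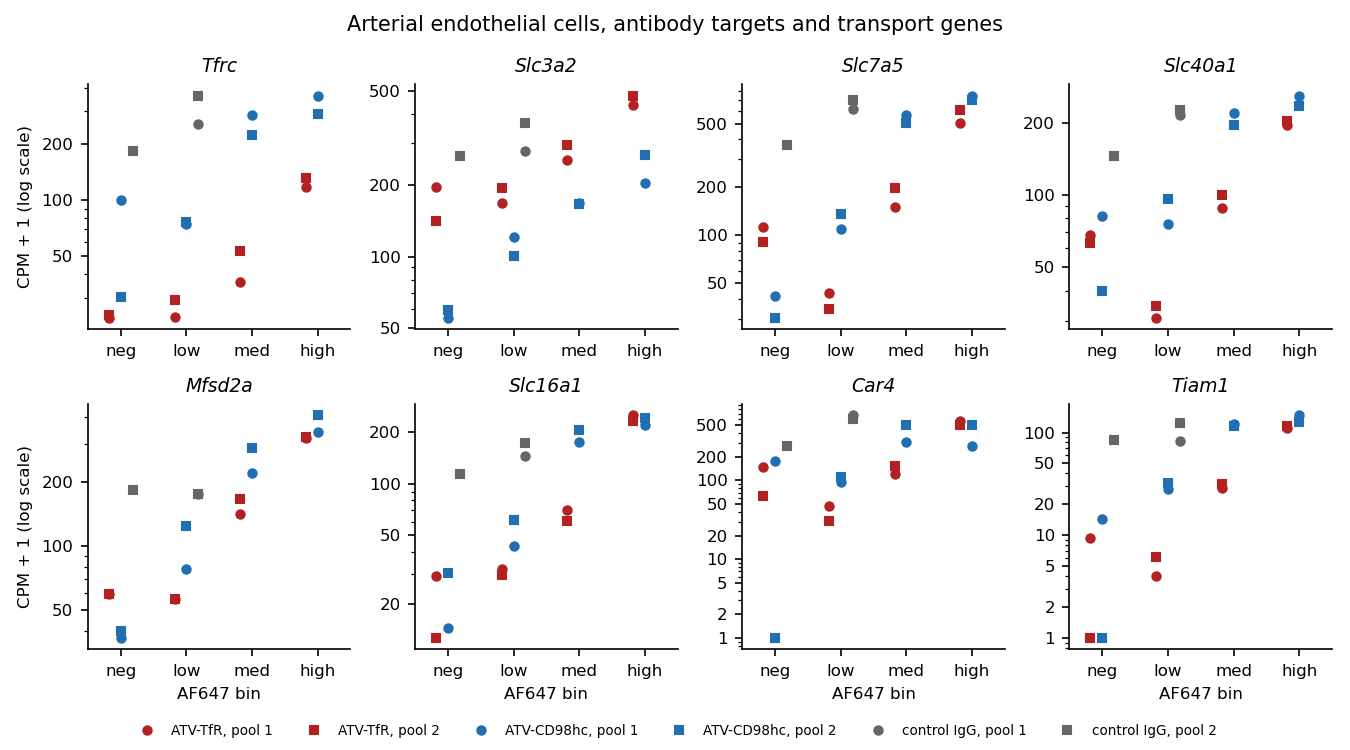
Level of 8 receptor and transport genes in arterial endothelial cells (CPM plus 1, log axis) in each AF647 bin, 1 point per library. Tfrc rises from 22.8 and 28.3 CPM in the ATV-TfR low bin to 117 and 130 in the high bin, and its ATV-CD98hc points lie above the ATV-TfR points at the high gate.

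**Figure D4:**
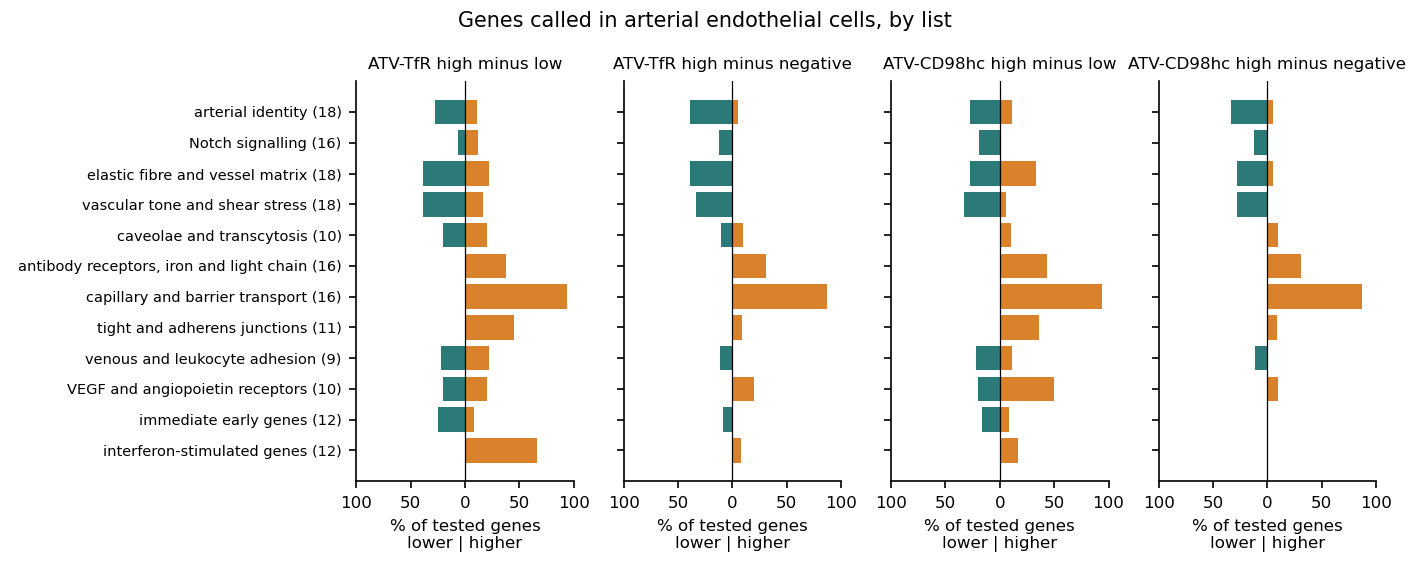
Percent of the tested genes of each list (12 lists) that were called higher or lower in the high bin of ATV-TfR and of ATV-CD98hc, each against its low and its negative bin. Capillary and barrier transport was higher for 15 of 16 genes from low to high with both antibodies and lower for 0.

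RNA of other cell types moved with the bins as well. For the counts of markers called from low to high, 11.7% of all genes were lower and 7.84% higher with ATV-TfR, and 11.4% and 5% with ATV-CD98hc. The summed astrocyte markers of the arterial cells were 4319 to 5744 CPM in the ATV-TfR low bin and 690 to 805 in the high bin, and 3866 to 4366 against 192 to 508 with ATV-CD98hc, and of 8 astrocyte markers 6 and 8 were called lower. Pericyte markers were 442 to 1277 CPM in the low and 4506 to 4575 in the high bin of ATV-TfR, and 8 of 8 were called higher. With ATV-CD98hc they were 1111 to 1229 against 1713 to 3164 CPM, and 2 of 8 were called. Microglia markers were 187 to 369 CPM in the low and 87.2 to 97.0 in the high bin of ATV-TfR, with 4 of 8 called lower, and 517 to 1076 against 124 to 140 CPM with ATV-CD98hc, with 6 of 8 called lower. Oligodendrocyte markers reached 886 to 17600 CPM in the ATV-TfR negative bin, mostly from Ptgds at 16790 CPM in pool 1. Smooth muscle markers were 933 to 1728 CPM in the negative, 234 to 344 in the low and 421 to 427 in the high bin of ATV-TfR. Of 7 tested, 5 were called lower in the high than in the negative bin, where 2.9% of all genes were lower. From low to high 1 was called higher and 0 lower. When cells with more than 5 UMIs of 1 other type were left out, the calls fell to 865 from low to high with ATV-TfR and 920 with ATV-CD98hc. The 7 falls of matrix genes, the 5 falls and 2 rises of arterial identity genes, the 6 rises of the receptor list and 14 of the 15 rises of transport genes were still called with ATV-TfR, as were 5 of 5, 5 of 5, 5 of 7 and 12 of 15 with ATV-CD98hc for matrix falls, identity falls, receptor rises and transport rises. Of 11 junction genes and 12 interferon-stimulated genes tested, 5 and 8 were called higher from low to high with ATV-TfR, and 4 and 2 with ATV-CD98hc. Against the negative bin 1 and 1 were higher with ATV-TfR, and 1 and 0 with ATV-CD98hc, beside 1.59% and 0.901% of all genes. Of the 5 and 8 with ATV-TfR, 1 and 2 were still called without the cells with RNA of other types. Among those lost, the change of Cdh5 went from 0.65 to 0.24 and that of Ifit1 from 1.10 to 0.54. This setting also left out 33.0% to 39.8% of the arterial cells in the low, medium and high libraries of ATV-TfR. The part of other-cell RNA and of the smaller cell number in the lost calls was not tested. Cells with up to 5 UMIs of another type stayed in, and the part of such RNA in the kept calls was not tested either.

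The 4 haemoglobin genes called higher from low to high with ATV-CD98hc rest on 1 library: Hbb-bs had 10.9 CPM in the high bin of pool 1 and 924 in that of pool 2. Without ATV-CD98hc replicate 2 the change of Hbb-bs was 4.41 and was not called (edgeR adjusted p = 0.526).

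**Figure D5:**
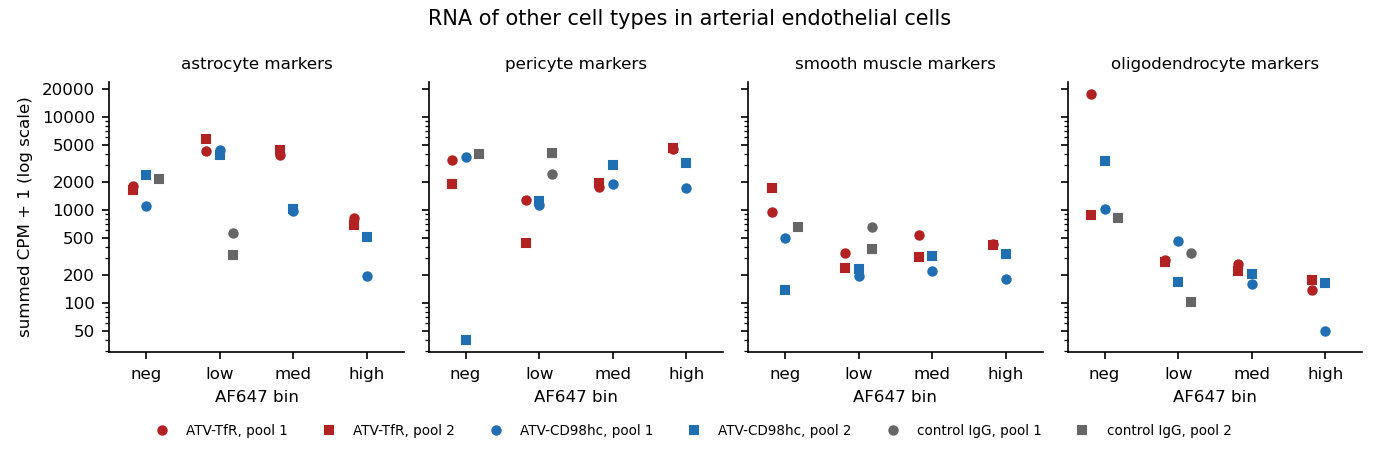
Summed level of astrocyte, pericyte, smooth muscle and oligodendrocyte markers in arterial endothelial cells (CPM plus 1, log axis) in each AF647 bin, 1 point per library. Astrocyte markers lie at 4319 to 5744 CPM in the ATV-TfR low bin and at 690 to 805 in the high bin, while pericyte markers run from 442 to 1277 up to 4506 to 4575.

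At the high gate, 10 genes (0.0699% of those tested) differed between ATV-TfR and ATV-CD98hc, all lower with ATV-TfR. Tfrc was among them, at 117 and 130 CPM against 362 and 288 (-1.36 ± 0.23, edgeR adjusted p = 0.0217). It was below the control IgG libraries too, which are of the low and negative bins and not of this gate. In remaining endothelial cells of the same high libraries Tfrc was at 221 and 244 CPM with ATV-TfR against 663 and 492 with ATV-CD98hc. Slc3a2 was at 436 and 476 against 204 and 267 CPM and missed the threshold (0.98, edgeR adjusted p = 0.0739). At that gate each receptor gene thus had its lower level in the mice given the antibody against it, called for Tfrc alone. Those mice also carry the knock-in of that receptor, so antibody and genotype cannot be told apart here. The other 9 were Cemip, Coch, Efemp1, Tgfbi, Slc7a11, Wdfy1, Aox3, Cpxm1 and Col1a1, and Cemip, a hyaluronan-degrading protein, had 1.02 and 0 against 37.1 and 35.4 CPM. Fibroblast markers moved with these calls: their summed level was 69.5 to 89.5 CPM with ATV-TfR and 125 to 336 with ATV-CD98hc, the list median was -1.60 with Col1a1 called, and Dcn had a mean of 15.9 against 94.9 CPM and was not called. When cells with RNA of other types were left out, 5 genes were called, Tfrc was still called at -1.46, and Slc7a11 was at 0.14. The part of fibroblast RNA in the other calls was not tested. Dropping ATV-TfR replicate 2 gave a count of 2, ATV-CD98hc replicates 1 and 2 gave 40 and 834, control IgG replicate 2 gave 17, and the replicate number as a block gave 19. The call of Tfrc was lost once ATV-TfR replicate 1 or 2 was dropped, at -1.28 and -1.47, where the lone ATV-TfR library is assumed to vary like the other groups.

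Summed over all bins, the arterial cells of the 6 pools gave 1 gene of 14589 (0.00685%) called between ATV-TfR and control IgG, and 0 (0%) between ATV-CD98hc and control IgG, by edgeR. At an unadjusted p below 0.05 the counts were 1200 and 925, and DESeq2 called 101 and 28. The called gene was Csf1r, a microglial gene, at 2.50 and 2.20 CPM with ATV-TfR against 13.1 and 29.9 with control IgG. Tfrc was at 85.4 and 99.7 CPM with ATV-TfR, 272 and 215 with ATV-CD98hc and 248 and 223 with control IgG, and its difference of -1.25 from control IgG was not called (edgeR adjusted p = 0.119). The pools weigh the bins by captured cells, and control IgG pool 1 held only 52 arterial cells. The ATV-TfR count rose to 86 and 57 without ATV-TfR replicates 1 and 2, to 60 and 356 without control IgG replicates 1 and 2, and was 0 once ATV-CD98hc replicate 1 was dropped. Between ATV-CD98hc and control IgG, dropping ATV-TfR replicates 1 and 2 gave 42 and 63, and dropping control IgG replicates 1 and 2 gave 21 and 273.

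Whether the changes over the bins differ between arterial and remaining cells was tested as an interaction in the 18 libraries with both classes, with 16017 genes. The arterial change from low to high differed from that of remaining cells for 491 genes (3.07%) with ATV-TfR, 224 (1.4%) higher and 267 (1.67%) lower, and for 1075 (6.71%) with ATV-CD98hc, 558 (3.48%) higher and 517 (3.23%) lower. Scaling by the median ratio gave 315 higher and 171 lower with ATV-TfR. Dropping ATV-TfR replicates 1 and 2 took the first count to 87 and 189, and dropping ATV-CD98hc replicate 2 took the second to 316. Genes of both directions above were among them. Cytl1, Gja5, Vegfc, Stmn2, Clu, Slc3a2, Fcgrt and Slc16a1 were not called with both antibodies in this test. Of the arterial identity list, Cxcl12 alone was called with both. Slc7a5 rose by 2.09 more in arterial than in remaining cells with ATV-TfR and by 1.44 more with ATV-CD98hc, and Car4 by 1.97 and 1.30 more. For Slc7a5, arterial cells were 0.86 lower on the log2 scale than remaining cells in the ATV-TfR high bin and 3.07 lower in the low bin. Ptgis, Ace and Eln fell by 3.20, 2.43 and 1.60 more in arterial cells with ATV-TfR. For Tfrc the difference was 0.06 with ATV-TfR (edgeR adjusted p = 0.989) and 0.94 with ATV-CD98hc, so a larger rise in arterial cells was called with ATV-CD98hc and not with ATV-TfR, and the antibodies were not compared in this.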

How the data were processed

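The authors deposited 1 matrix of UMI counts per gene and barcode, made with Cell Ranger 7.1.0 per the submitters' processing notes, which also name mm10, GRCm38 and Seurat 4 and 5; the annotation release is not given in the sources used here. The deposited counts are not normalized and hold 32285 genes. Barcodes below 500 genes or 800 UMIs, or above 10% mitochondrial UMIs, were dropped. No doublet step of the authors is stated, and Scrublet's marks were used only as an alternative. The rule for arterial cells, the gene lists and the tests were chosen with earlier results of these data known.

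UMIs of arterial cells were summed per library (at least 20 cells) and compared with edgeR 4.0.16 in R 4.3.3, with limma 3.58.1. The settings were TMM factors, filterByExpr at a minimum count of 10, the quasi-likelihood test and Benjamini-Hochberg adjustment at 0.05. Each SE is the absolute log2 change divided by the square root of the F statistic of that test. DESeq2 1.42.0 was an alternative, as were other scaling, filters, stricter markers, thinning and leaving out replicates; leaving out cells with RNA of other types was added after seeing the data. Shares were compared over bins by exact permutation with numpy 2.4.6. Their Benjamini-Hochberg adjustment and the exact intervals came from scipy 1.17.1. Intervals cover counting error only, and counts of UMIs set the precision of every level. Genes were named if they were 1 of the 10 largest rises or falls among called genes with average log2 CPM of at least 4 and no overlap of libraries, or a called gene of the lists, or a marker or receptor; Klf2 and the other list genes given as not called were chosen after their values were seen. Same-numbered libraries of a treatment share the mice of a pool, so the number pairs bins within a treatment, while between treatments it is only a number. On simulated counts the fit recovered 68% of genes changed by 1 on the log2 scale and 100% changed by 2 for ATV-TfR high against low, and 22% and 78% for ATV-CD98hc high against negative.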

Additional observations from a re-analysis of the deposited data

Results flagged for a closer look

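The change from the low to the high bin differed between arterial and remaining endothelial cells, by the interaction test of edgeR, for 491 genes with ATV-TfR and 1075 with ATV-CD98hc. Over all genes tested, the arterial change was higher for 1.4% and lower for 1.67% with ATV-TfR, and higher for 3.48% and lower for 3.23% with ATV-CD98hc, and the counts of list genes are to be read against these shares. The test uses the same rule-defined classes and the same libraries for both classes, and the 2 antibodies share no library. Of 16017 genes tested, 330 were called with both antibodies, all in the same direction, and 28 of them were on the gene lists. The values of these 28 below are the arterial change minus the change of the remaining cells on the log2 scale, ATV-TfR first. Markers of other cell types among them were not tested apart from RNA of neighbouring cells.

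Of 16 genes on the list of capillary and barrier transport, the arterial change was higher for 8 and lower for 0 with ATV-TfR, and higher for 10 and lower for 1, the glucose transporter gene Slc2a1, with ATV-CD98hc. Of 16 genes of antibody receptors, iron and the light chain, 2 were higher and 1 lower, and 5 higher and 2 lower. Among the genes of these lists called with both, the values were 2.09 and 1.44 for Slc7a5, 0.95 and 0.49 for the iron exporter gene Slc40a1, 1.03 and 0.89 for the arginine transporter gene Slc7a1, 2.39 and 1.15 for the glutamate transporter gene Slc1a1, 0.96 and 0.63 for the organic anion transporter gene Slc22a8, and 0.95 and 0.80 for Mfsd2a. The other capillary genes of the list, which encode no transporter, were Car4 at 1.97 and 1.30, Cxcl12 at 1.25 and 0.77, Spock2 at 0.85 and 0.45, and Rgcc at 1.22 and 0.74. The antiviral gene Rsad2 was at 1.64 and 1.01.

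Of 10 genes of caveolae and transcytosis, the arterial change was lower for 4 with ATV-TfR and 6 with ATV-CD98hc, and higher for 1 with each, Mfsd2a. Of 18 genes of tone and shear stress, 3 were lower and 0 higher, and 5 lower and 1 (Thbd) higher. Of 16 Notch genes, 2 were lower and 0 higher, and 5 lower and 1 (Heyl) higher. The values of those called with both were -0.47 and -0.67 for Cavin2, -1.04 and -0.80 for Cavin1, -1.14 and -0.78 for Ehd4, and -0.59 and -0.74 for Ehd2. The nitric oxide synthase gene Nos3 was at -1.0 and -0.59, Ptgis at -3.20 and -3.03, and Ace at -2.43 and -2.64. The Notch ligand genes Dll4 and Jag1 were at -0.93 and -1.06, and at -1.33 and -0.99. The adhesion gene Icam2 was at -0.39 and -0.48. A negative value means a smaller rise or a larger fall than in remaining cells, and need not be a fall in arterial cells. Within arterial cells, 2 of the 10 caveolae genes were called lower and 2 higher from low to high with ATV-TfR. With ATV-CD98hc 0 were lower and 1 higher. Over all genes tested there, 11.7% were lower and 7.84% higher with ATV-TfR, and 11.4% and 5% with ATV-CD98hc.

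Matrix genes went both ways, with Eln at -1.60 and -1.67, Fn1 at -1.36 and -0.52, Ltbp4 at -1.18 and -0.94 and Ltbp1 at 1.93 and 2.55. The pericyte gene Pdgfrb was at 1.96 and 1.83, and the astrocyte genes Mfge8 and Atp1b2 at 1.14 and 1.03, and at 1.76 and 2.32. These last 3 genes had the opposite sign with ATV-TfR when cells with RNA of other types were left out. That setting leaves cells out by the UMIs of marker lists that hold these 3 genes, so it is no independent check of them.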

How the results depend on the processing

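Precision is limited by 2 pools per group, few cells in the negative bins and edge cells at 3 marker UMIs; the cause of the shifts below was not tested. The trends of both transport vehicles kept their sign and call under thinning, at least 5 marker UMIs, dropping Mgp and Fbln5, leaving out Scrublet-marked cells or other-cell RNA, and permuting within pools as a replicate block. With 1 pool left out no call was possible, and slopes were -1.22 to -1.19 and -1.53 to -1.49 with ATV-TfR, and -1.06 to -0.872 and -2.11 to -1.77 with ATV-CD98hc. For control IgG they were -0.287 to 0.91 and -0.34 to 2.30, the negative values without replicate 1.

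Counts of genes called, against those reported, were as follows. Leaving out other-cell RNA gave 865 for ATV-TfR high against low, 920 for ATV-CD98hc high against low, 202 for ATV-CD98hc high against negative, 5 between the high bins and 43 for ATV-CD98hc against control IgG. Leaving out Scrublet-marked cells gave 1726, 1329, 212, 4 and 184 in the same order, 130 for ATV-TfR against control IgG, and 315 and 661 for the arterial change against the remaining one. DESeq2 gave 559, 16, 101 and 28, and no filter on low counts 581, 336, 21 and 4, for ATV-CD98hc high against negative, the high bins, and ATV-TfR and ATV-CD98hc against control IgG. At least 5 marker UMIs gave 63 between the high bins and 2 for ATV-TfR against control IgG. With the replicate block, where pools are paired within a treatment, 3529 genes were called for ATV-CD98hc high against low; between treatments, where the number is only a number, 19 between the high bins and 14 for ATV-TfR against control IgG. It moved no other count by over 1.5 times. Leaving out 1 replicate gave 742 to 3266 and 139 to 909 for ATV-TfR high against low and negative, 1640 to 2410 and 166 to 350 for ATV-CD98hc, 2 to 834 between the high bins, 0 to 356 and 0 to 273 against control IgG, and 87 to 623 and 316 to 1062 for the arterial change against the remaining one.

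Over the alternatives, named genes gave 6875 values with the same call, 930 without it, 18 newly past the threshold and 32 of opposite sign. Without other-cell RNA these were, for ATV-TfR high against low, Myl9 at -1.28 and Pdgfrb at -2.25; for ATV-CD98hc high against negative, Cnp at 0.31 and Ttr at -1.13; and between the high bins Slc7a11 at 0.14. In the arterial change against the remaining one they were, with ATV-TfR, Slc30a10 at -0.31, Sdc2 at -0.01, Pde8b at -0.10, Chn1 at -0.38, Mfge8 at -0.50, Atp1b2 at -0.76, Pdgfrb at -2.02 and Tfrc at -0.16. With ATV-CD98hc they were Cdh11 at -0.34, Slc7a11 at -0.67, Cntfr at -3.99, Lama2 at -1.02, C1qa at 1.39, C1qb at 0.60, Cldn11 at -2.08, Pdgfra at -0.83, Cryab at -0.79, Col1a1 at -3.72, Pgf at -2.67, Atp13a5 at -1.13, Vegfa at -5.09 and Pdgfrb at -0.30. Cells were left out in that setting by the UMIs of lists that hold Myl9, Pdgfrb, Cnp, Mfge8, Atp1b2, C1qa, C1qb, Cldn11, Pdgfra, Cryab, Col1a1 and Atp13a5. For these genes the setting is no independent check. With no filter on low counts Tfrc was at -0.01 with ATV-TfR in the arterial change against the remaining one. With 1 replicate left out, Aldoc ran from -0.67 to 1.69 in that comparison with ATV-CD98hc, Col1a1 from -4.03 to 3.57 for ATV-TfR high against negative, Fcgrt from -0.00 to 0.46 between the high bins, and Slc7a5 from -0.41 to 0.01 for ATV-TfR against control IgG.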

Other observations

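The receptor gene Kdr, which encodes the main VEGF receptor of blood vessels, had 131 and 116 CPM in the ATV-TfR negative bin, 147 and 84.9 in the low, 226 and 198 in the medium and 441 and 390 in the high bin. With ATV-CD98hc it had 135 and 166, 154 and 186, 447 and 392, and 534 and 424 CPM. It was called higher in the high bin in all 4 comparisons with a low or negative bin, by 2.02 and 1.89 with ATV-TfR and 1.64 and 1.89 with ATV-CD98hc (log2, low then negative). Of 10 genes of VEGF and angiopoietin signalling, 2 rose and 2 fell from low to high with ATV-TfR, and 5 rose and 2 fell with ATV-CD98hc. Over all genes tested, 7.84% rose and 11.7% fell with ATV-TfR, and 5% and 11.4% with ATV-CD98hc.

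Of 12 immediate early genes, which respond to dissociation, Ier3 rose and Fos, Nr4a1 and Egr1 fell from low to high with ATV-TfR, and Ier3 rose and Fos and Nr4a1 fell with ATV-CD98hc. Over all genes tested the shares were 7.84% higher and 11.7% lower with ATV-TfR, and 5% and 11.4% with ATV-CD98hc. The list medians were 0.16 and -0.18, against 0.14 and 0.11 for all genes tested.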
